A study of Mus musculus with 4 samples.

Results

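Ppp1r1b, Adcy5, Gnal, Gng7, Pde10a, Pde1b, Rgs9, Arpp21 and Rasd2 are 9 of the 19465 genes counted in coronal mouse brain sections, chosen by symbol as genes of cyclic AMP and phosphodiesterase signalling in the striatum. All 9 were found in the table of counts, each on 1 row, and all 9 passed the filter on low values that is described below. The sections came from 4 mice, 2 wild type and 2 heterozygous for Celsr3, with no treatment in either group. Age, sex and strain are not given in the sources used here. Brains were fixed in formalin, embedded in paraffin and read with Visium CytAssist, in which gene probes hybridised to the tissue are moved onto an array of barcoded spots. Each spot covers a patch of tissue in which more than 1 cell, of more than 1 type, may lie.

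The spots carry 1 of 4 barcode endings, called sets 1 to 4 here, and the labels link 0 of the 4 sets to an animal. The genotypes were therefore not compared, and each value is given by set, with no test over sets. The sets shared barcodes, since 1613 of the 4744 different barcodes occurred in all 4. Median counts per spot were 52481, 38182, 44972 and 26445 for sets 1 to 4. Levels are counts summed over the spots of an area per 1000000 counts summed there (CPM). Their 95% intervals are exact Poisson intervals, those of ratios are exact conditional binomial intervals, and both cover counting error only. Levels of different genes are not compared with each other, because each gene was read by its own probes.

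In medium spiny neurons, the projection neurons that make up most of the striatum, dopamine and adenosine receptors raise or lower cyclic AMP. The olfactory-type stimulatory G protein alpha subunit encoded by Gnal acts with the gamma subunit encoded by Gng7. It couples those receptors that raise cyclic AMP to adenylyl cyclase 5, encoded by Adcy5. Cyclic AMP activates protein kinase A, which phosphorylates DARPP-32, the phosphatase inhibitor encoded by Ppp1r1b, and ARPP-21, encoded by Arpp21, while the phosphodiesterases encoded by Pde10a and Pde1b break cyclic nucleotides down. RGS9, encoded by Rgs9, speeds the shutdown of inhibitory G proteins in these cells, and Rhes, encoded by Rasd2, is a small GTP-binding protein that dampens signalling of receptors of this kind.

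Promoter windows from 250 bases before to 50 bases after a start site were taken from RefSeq (GRCm38.p6) for 7 of the 9 genes, 19 windows in all. They were searched for the cyclic AMP response element TGACGTCA, for its core TGACG on both strands, and for TATAAA on the strand of the gene. The full element was in 0 of the 19 windows, against 1.79% of 32851 windows of mouse genes. The core was in 4 windows, of Arpp21 and Gng7 only, and in 20.8% of all windows. Some Arpp21 windows overlap and share a core, so the windows are not separate cases. No window of Ppp1r1b or Gnal was used. TATAAA was in 1 window each of Rgs9 and Pde1b, and in 8.32% of all windows. The windows below show the range among genes that were high in the same area: Adcy5 and Pde10a have GC-rich windows with none of these motifs (79.0% and 71.3% GC, against a median of 52.7% over all windows), Gng7 holds a core and Rgs9 a TATAAA. The Pde10a window not shown has 56.7% GC and none of these motifs, and the Gng7 window not shown holds none of them either. Capitals mark the core (on the opposite strand in Gng7) and the TATAAA, which starts at base 56 of the Rgs9 window. Such matches describe letters only.
Adcy5, chr16:35154614-35154913, plus strand: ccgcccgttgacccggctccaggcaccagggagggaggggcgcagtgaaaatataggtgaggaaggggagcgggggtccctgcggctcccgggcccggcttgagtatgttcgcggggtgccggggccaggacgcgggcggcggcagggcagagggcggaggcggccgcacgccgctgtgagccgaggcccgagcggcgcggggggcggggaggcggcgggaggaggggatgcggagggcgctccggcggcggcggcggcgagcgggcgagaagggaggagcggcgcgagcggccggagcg
Gng7, chr10:81001316-81001615, minus strand: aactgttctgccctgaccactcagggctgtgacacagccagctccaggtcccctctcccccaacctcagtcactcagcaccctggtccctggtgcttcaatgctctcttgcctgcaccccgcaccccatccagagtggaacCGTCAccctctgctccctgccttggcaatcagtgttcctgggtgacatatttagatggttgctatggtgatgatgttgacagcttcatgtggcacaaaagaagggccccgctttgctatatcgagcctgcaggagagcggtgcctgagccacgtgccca
Pde10a, chr17:8801495-8801794, plus strand: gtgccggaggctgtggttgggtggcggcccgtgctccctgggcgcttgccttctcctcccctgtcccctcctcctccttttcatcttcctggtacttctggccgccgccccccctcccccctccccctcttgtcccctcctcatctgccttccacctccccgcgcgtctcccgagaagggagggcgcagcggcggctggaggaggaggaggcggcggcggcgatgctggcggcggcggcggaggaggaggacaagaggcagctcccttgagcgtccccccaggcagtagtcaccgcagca
Rgs9, chr11:109298132-109298431, minus strand: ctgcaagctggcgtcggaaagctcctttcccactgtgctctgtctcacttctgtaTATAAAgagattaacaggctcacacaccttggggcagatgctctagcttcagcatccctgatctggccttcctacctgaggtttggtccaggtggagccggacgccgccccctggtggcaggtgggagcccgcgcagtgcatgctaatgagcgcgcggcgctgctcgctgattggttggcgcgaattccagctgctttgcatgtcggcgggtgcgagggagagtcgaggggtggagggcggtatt

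Areas were defined without any of the 9 genes. Spots of each set were clustered on other genes, and a cluster counted as striatal where at least 3 of 16 striatal markers (Drd1, Drd2, Adora2a, Penk, Tac1 and others) were among its 50 leading genes. The striatal areas held 695, 744, 881 and 478 spots in sets 1 to 4, and 2360, 2064, 2563 and 2816 spots lay outside them. The summed level of the 16 markers, which defined the areas, was 7893 to 9554 CPM inside and 418 to 600 CPM outside, with no marker at 0. A list of 7 markers of cortical excitatory neurons was at 91.4 to 161 CPM in the striatal areas and at 1842 to 2455 CPM outside. Striatal clusters were then divided by 10 ventral and 8 dorsal marker genes into a dorsal-marker area of 488, 383, 470 and 431 spots and a ventral-marker area of 207, 361, 411 and 47 spots.

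The 9 genes were concentrated in the striatum in every set. Together they made up 1.53%, 1.89%, 1.75% and 1.61% of all striatal counts in sets 1 to 4, and 0.152%, 0.222%, 0.164% and 0.154% of the counts elsewhere. All 9 were called higher, that is at least 2-fold higher in striatal than in non-striatal spots with an interval that leaves out 1, in each of the 4 sets. Of the 10144 genes that averaged 10 CPM or more over whole sections, 4.14%, 3.88%, 3.82% and 4.07% were called higher in sets 1 to 4, and 2.91% in every set. The median log2 ratio of the 9 genes was 3.43, 3.40, 3.58 and 3.35 in sets 1 to 4, and that of all genes tested was between -0.08 and -0.07. Because a spot averages over cells, fewer cells of a type and less RNA per cell cannot be told apart in any of these levels.

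**Figure D1:**
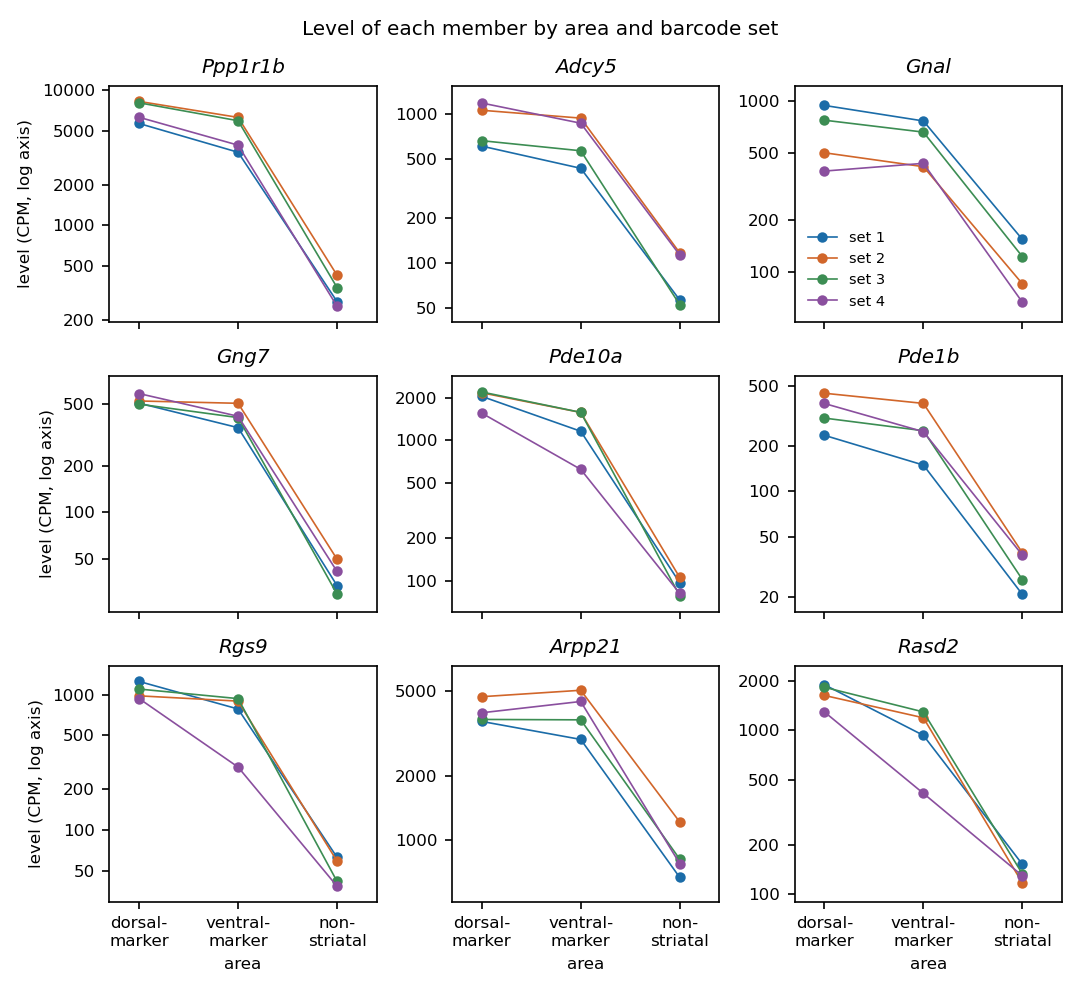
Level of each gene (CPM, log axis) in the dorsal-marker striatal area, the ventral-marker striatal area and all non-striatal spots, with 1 point per barcode set joined by lines. In every panel the non-striatal points are the lowest, while the step from dorsal to ventral is small for Arpp21 and Gnal and large for Rasd2 and Rgs9 in set 4.

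Of the genes that make cyclic AMP, Adcy5 stood at 606, 1054, 659 and 1179 CPM in the dorsal-marker area of sets 1 to 4, and at 56.3, 117, 52.4 and 113 CPM in non-striatal spots. The levels of sets 2 and 4 were above those of sets 1 and 3 in both places, and striatal and non-striatal levels did not overlap. The ratio of all striatal to non-striatal spots was 9.94, 8.56, 11.8 and 10.2, which placed Adcy5 at rank 25 of 10144 genes by its median ratio.

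Gnal, the stimulatory alpha subunit first known from olfactory neurons, had dorsal-marker levels of 945, 498, 774 and 389 CPM and non-striatal levels of 155, 84.9, 123 and 66.1 CPM. It thus varied more between sets than any other of the 9 genes, with the highest dorsal-marker level 2.43 times the lowest. Among all genes measured in that area, 12.3% of 9625 differed at least 2-fold between the highest and the lowest set. The ratio of striatal to non-striatal spots, in contrast, was 5.81, 5.40, 5.91 and 5.95, a range of 0.14 on the log2 scale that was the narrowest of the 9. Gnal was 48th by this ratio.

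Gng7, the gamma subunit that pairs with it, was at 510, 527, 502 and 589 CPM in the dorsal-marker area, the smallest spread between sets of the 9 genes (highest over lowest 1.17). Outside the striatum it was at 33.4, 49.5, 29.4 and 41.2 CPM. The ratios were 14.0, 10.5, 15.7 and 13.9, and Gng7 was 17th.

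Both phosphodiesterase genes were striatal as well. Pde10a, whose enzyme hydrolyses cyclic AMP and cyclic GMP, was at 2061, 2187, 2215 and 1566 CPM in the dorsal-marker area and at 96.6, 105, 78.1 and 81.0 CPM in non-striatal spots. Its ratios of 18.9, 18.1, 24.8 and 18.2 placed it 12th. Pde1b, a calcium- and calmodulin-dependent phosphodiesterase, was at 235, 446, 305 and 381 CPM against 20.8, 39.3, 26.1 and 37.9 CPM, with ratios of 10.2, 10.6, 10.8 and 9.70 and rank 24. As with Gnal, the ratio of Pde1b moved little between sets (0.15 on the log2 scale) while its dorsal-marker level moved 1.90-fold.

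Ppp1r1b, the gene of DARPP-32, was at 5686, 8284, 8091 and 6321 CPM in the dorsal-marker area and at 273, 428, 347 and 252 CPM outside the striatum. No dorsal-marker spot lacked it, and the lowest spot of each set still held 70, 88, 60 and 36 counts. The ratios were 18.7, 17.2, 20.6 and 24.1, and the rank was 11. Arpp21, the other kinase substrate, was at 3605, 4711, 3685 and 3959 CPM in the dorsal-marker area, but at 668, 1216, 814 and 775 CPM in non-striatal spots. Its ratios of 5.15, 4.00, 4.52 and 5.17 were the lowest of the 9 in every set, and its rank was 70.

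Rgs9, the inactivator of inhibitory G proteins, was at 1253, 981, 1101 and 937 CPM in the dorsal-marker area and at 62.9, 59.0, 41.7 and 38.5 CPM elsewhere. With ratios of 18.0, 16.0, 24.6 and 22.7 in sets 1 to 4 it ranked 10th, the highest of the 9. Rasd2, the gene of Rhes, was at 1892, 1628, 1826 and 1292 CPM against 153, 117, 133 and 130 CPM, with ratios of 10.8, 12.1, 11.9 and 9.27 and rank 23. Set 4 was the lowest in the dorsal-marker area for Rgs9, Rasd2, Pde10a and Gnal, and the highest for Adcy5 and Gng7.

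Across all named areas with at least 20 spots, both striatal areas were above every other area in 36 of 36 pairs of gene and set. The lower of the striatal levels exceeded the highest other area by 1.29-fold (Rgs9, set 4) to 5.68-fold (Rasd2, set 2). This holds for whole areas and not for each cluster in them. In set 4, 51 spots led by myelin genes were named white matter but held 4247 CPM of the striatal markers, and their levels of Rgs9 (513 CPM), Rasd2 (591 CPM) and Pde10a (750 CPM) were above those of the 47 ventral-marker spots (292, 412 and 622 CPM). Which area came next differed by gene and by set. It was the choroid plexus for all 9 genes in set 1, the ventricle lining for 8 genes in sets 2 and 4, and the claustrum and endopiriform area for 7 genes in set 3. In sets 2 to 4 Arpp21 was the exception, with cortex layer 2/3 next, and in set 3 Gnal, with the extended amygdala next. Those neighbours of the striatum also held striatal markers: the 16 markers summed to 2765 CPM in choroid plexus spots of set 1 and to 1722 and 1606 CPM in ventricle lining spots of sets 2 and 4, against 253 and 414 CPM in the ventricle lining of sets 1 and 3. The part of striatal tissue in these levels was not tested.

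**Figure D2:**
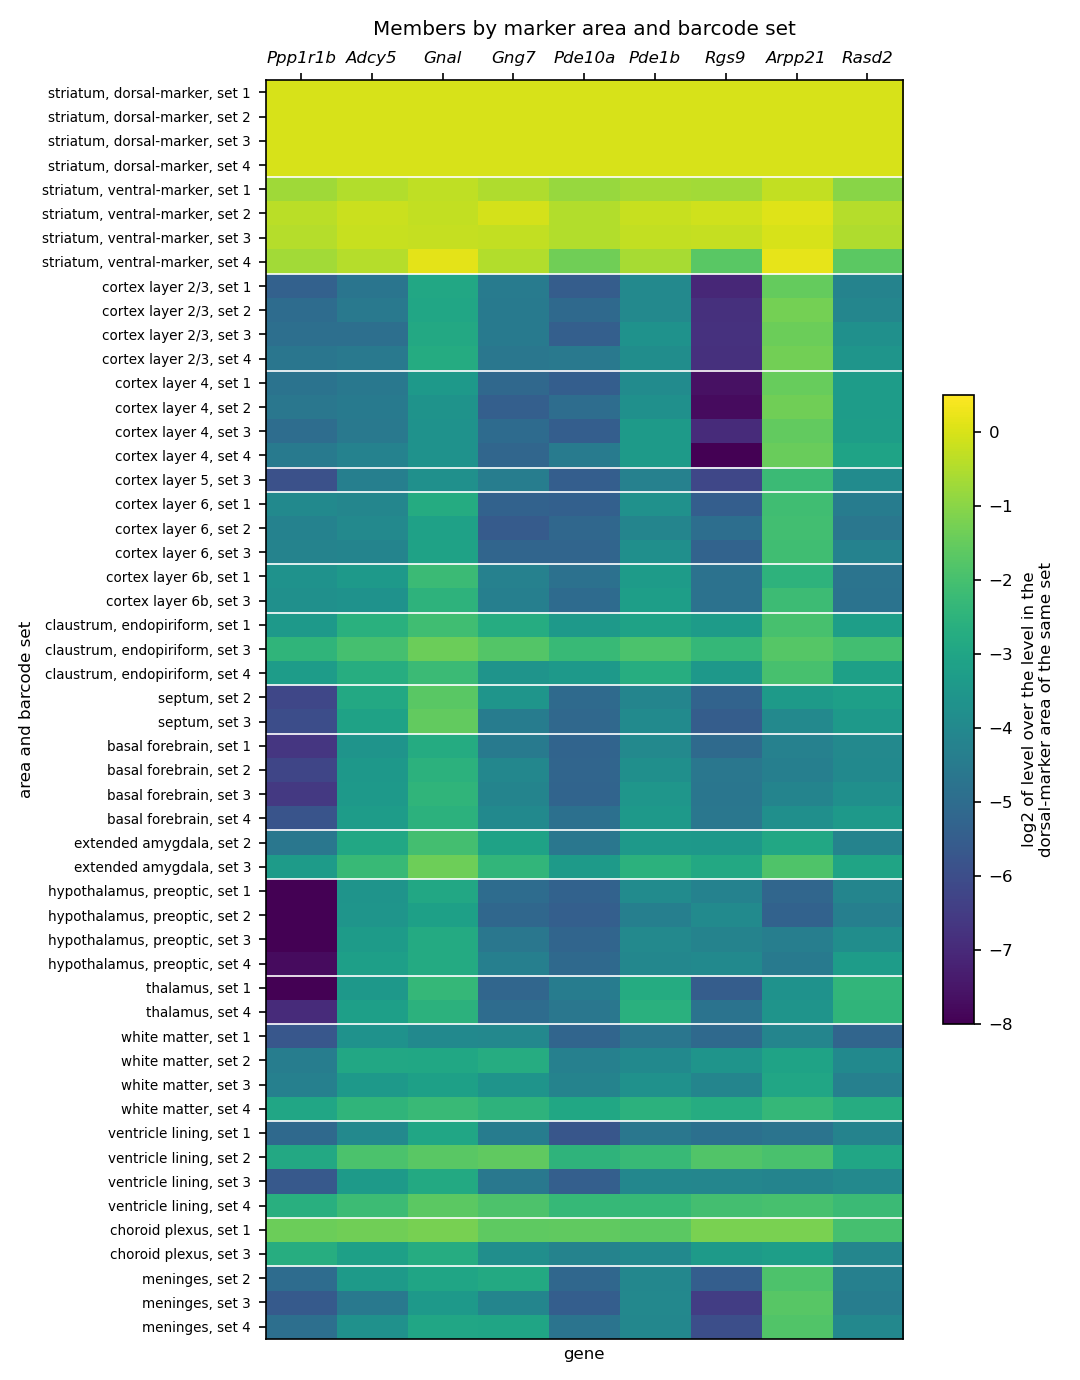
Heat map of the 9 genes (columns) over marker areas and barcode sets (rows, areas with at least 20 spots), coloured by the log2 of the level over the dorsal-marker level of the same set. Rgs9 is darkest in cortex layers 2/3 and 4, Ppp1r1b in hypothalamus and thalamus, and Arpp21 is the lightest gene in cortex layers 2/3, 4 and 6.

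Outside the striatum the 9 genes did not follow a common order. Arpp21 was high in the upper cortex, below the choroid plexus in set 1. In sets 2 to 4 layer 2/3 was above every other named non-striatal area taken as a whole. Some single clusters were higher, with 2942 CPM in 115 unnamed spots of set 2 and 1867 CPM in 100 unnamed spots of set 3. In set 4, 51 white-matter spots held 2387 CPM. Arpp21 was at 1256, 1940, 1379 and 1592 CPM in layer 2/3 and 1305, 1866, 1278 and 1443 CPM in layer 4 of sets 1 to 4. In layer 6, which was resolved in sets 1 to 3, it was at 841, 1109 and 857 CPM, or 0.669, 0.572 and 0.621 of layer 2/3. Its lowest area was the hypothalamic and preoptic one, at 98.2, 117, 179 and 175 CPM.

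Between layers 2/3 and 6 Ppp1r1b ran the other way. It was at 139, 262 and 274 CPM in layer 2/3 and at 368, 442 and 437 CPM in layer 6 of sets 1 to 3, ratios of 2.65, 1.68 and 1.60. Rgs9 was lowest in layer 4 (6.39, 4.59, 8.94 and 3.68 CPM) and was at 28.5, 32.2 and 28.3 CPM in layer 6, which was 3.01, 3.71 and 2.85 times its layer 2/3 level. Gng7 was lower in layer 6 than in layer 2/3, with ratios of 0.560, 0.478 and 0.615. For each of these genes all 3 intervals leave out 1.

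**Figure D3:**
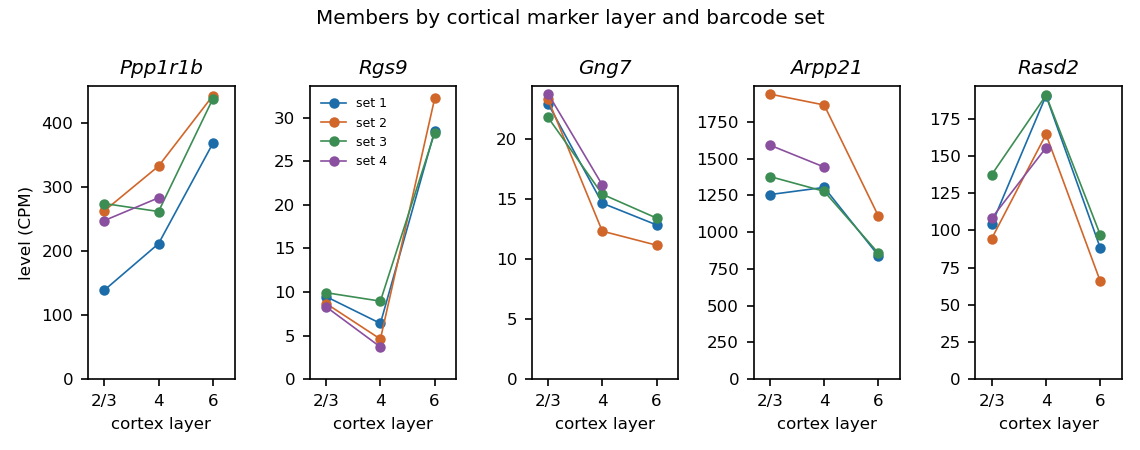
Level (CPM, axes from 0) of 5 of the genes in the spots with markers of cortex layers 2/3, 4 and 6, by barcode set; set 4 had no layer 6 area. Among the layers drawn, Ppp1r1b and Rgs9 are highest in layer 6, Gng7 in layer 2/3, and Rasd2 in layer 4, while Arpp21 is lowest in layer 6.

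In the thalamus, an area resolved in sets 1 and 4, Rasd2 was at 356 and 239 CPM. This was above its level in every cortical layer of those sets, at 1.87 and 1.54 times layer 4. Ppp1r1b, in contrast, was at 17.9 and 50.7 CPM in the thalamus, 0.0845 and 0.179 of layer 4, and Arpp21 was at 0.218 and 0.225 of layer 4. Adcy5, Gnal and Rgs9 were at least 2-fold higher in the thalamus than in layer 4 in both sets, with ratios of 2.16 and 2.05, 2.08 and 2.19, and 4.35 and 9.33. Rgs9 differed within the thalamus of set 1, at 35.3 CPM in 101 spots and 12.3 CPM in 49. In set 4, a check added after the data were seen left unnamed 118 spots that the first rule named thalamus. Those spots held 7.05 CPM of Rgs9, against 34.3 CPM in the thalamus and 3.68 CPM in layer 4. In the hypothalamic and preoptic area Ppp1r1b was at 21.7, 32.1, 30.7 and 29.4 CPM, its lowest level in sets 2 to 4, whereas Rgs9 was at 66.1, 63.7, 59.4 and 59.8 CPM, above each cortical layer.

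The choroid plexus spots also held Ppp1r1b. Its level there was 2153 CPM in set 1, 1251 CPM in set 3 and 1534 CPM in the 9 such spots of set 4. The number of Ppp1r1b counts per Pde10a count was 3.10, 10.3 and 44.9 in these spots, against 2.76, 3.65 and 4.04 in the dorsal-marker area of the same sets. In set 1 the choroid plexus spots had nearly the striatal proportion of Pde10a, and they also carried the 2765 CPM of striatal markers given above. In sets 3 and 4 those markers were at 528 and 312 CPM, and Ppp1r1b exceeded the amount that the dorsal-marker proportion of Ppp1r1b to these markers would give by 2.63-fold and 7.12-fold. The same measure for the other 8 genes ran from 0.935 (Pde10a) to 2.54 (Gnal) in set 3, and from 0.329 (Pde1b) to 1.70 (Adcy5) in the 9 spots of set 4. Those 9 spots held only 73 counts of the striatal markers. A raised measure for Ppp1r1b was not particular to the choroid plexus. It was 2.52 and 2.99 in cortex layer 6b of sets 1 and 3, and 2.23, 2.81 and 1.86 in layer 6 of sets 1 to 3.

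Within the striatum the question was whether the genes differ between its dorsal and ventral parts. A gene was called where its level was at least 1.5-fold apart and the interval leaves out 1. Ppp1r1b, Pde10a, Pde1b, Rgs9 and Rasd2 were called higher in the dorsal-marker area in sets 1 and 4, and 0 of the 9 genes in sets 2 and 3, so that 0 were called in every set. The background over 9719 genes was 2.04%, 1.2%, 0.803% and 6.09% in sets 1 to 4, and 0.381% in every set. None of the 9 was called higher in the ventral-marker area of any set, where the background was 5.77%, 4.02%, 3.93% and 6.93%, and 0.7% in every set.

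By the ratio of dorsal-marker to ventral-marker level, Rasd2 was first or second of the 9 genes in each set, and Arpp21 was last. Rasd2 was at 930, 1190, 1292 and 412 CPM in the ventral-marker area of sets 1 to 4, which gave dorsal-to-ventral ratios of 2.03, 1.37, 1.41 and 3.13. Pde10a was at 1162, 1583, 1585 and 622 CPM, with ratios of 1.77, 1.38, 1.40 and 2.52. Rgs9 was nearly even in sets 2 and 3 and far lower ventrally in set 4, with ventral-marker levels of 784, 897, 936 and 292 CPM and ratios of 1.60, 1.09, 1.18 and 3.21.

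Ppp1r1b was at 3482, 6307, 5959 and 3930 CPM in the ventral-marker area (ratios of 1.63, 1.31, 1.36 and 1.61), and Pde1b at 149, 382, 252 and 248 CPM (1.57, 1.17, 1.21 and 1.54). Adcy5 and Gng7 had ratios from 1.13 to 1.41 and from 1.04 to 1.44. At the other end, Gnal was at 766, 413, 659 and 432 CPM, with ratios of 1.23, 1.21, 1.17 and 0.901. Arpp21 was at 2969, 5050, 3668 and 4474 CPM, with ratios of 1.21, 0.933, 1.00 and 0.885. The 2 substrates of protein kinase A thus differed: in each set the Arpp21 interval lay below that of Ppp1r1b.

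Other tissue also differed between the dorsal-marker and ventral-marker areas. In sets 1 to 3 the ventral-marker area held more of 12 white-matter genes (23586, 14484 and 13624 CPM summed, against 12261, 7558 and 7696 CPM in the dorsal-marker area), and in set 4 it held less (3836 against 12409 CPM). All 12 were above 0 in each area. The ventral-marker area of set 3 also held 3705 CPM of 8 choroid plexus genes, against 174 CPM dorsally. The striatal markers summed to 9298, 10792, 8981 and 9153 CPM in the dorsal-marker area of sets 1 to 4. In the ventral-marker area they were lower, at 5896, 8138, 6498 and 7021 CPM. Per count of these markers, the ventral-marker level relative to the dorsal-marker one was 0.966, 1.01, 1.02 and 0.811 for Ppp1r1b. This measure was 1.00, 1.14, 1.14 and 0.848 for Pde1b, and 0.987, 1.21, 1.17 and 0.407 for Rgs9. For Pde10a it was 0.889, 0.960, 0.989 and 0.518, and for Rasd2 0.775, 0.969, 0.978 and 0.416. The part of other tissue or of lower striatal markers in the ratios was not tested. The ventral-marker area of set 4 had only 47 spots.

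When the spots of all sets were clustered together, the ventral-marker area came to 133, 181, 196 and 101 spots, and white-matter genes were lower in it than in the dorsal-marker area of every set (9110, 6745, 7793 and 7589 CPM, against 15610, 11327, 11196 and 15797 CPM dorsally). The ratios of Rasd2 were then 1.99, 2.27, 1.69 and 2.09, so that Rasd2 was called in every set. The share of all genes called under this clustering was not computed. The striatal markers were lower ventrally here too, at 5871, 5749, 5734 and 6651 CPM, against 8793, 9848, 8365 and 8975 CPM dorsally. The part of this difference in the ratios was not tested. The joint ventral-marker area was 1 cluster in all sets, but most dorsal-marker spots lay in clusters that differed by set: 462 and 479 spots of sets 1 and 3 in the first, 583 of set 2 in another and 299 of set 4 in a further one. The ratios of Pde10a were 1.63 in set 1, 2.01 in set 2, just under 1.5 in set 3 and 1.77 in set 4. Those of Ppp1r1b were 1.52, 1.73, 1.40 and 1.51. Rgs9 had ratios of 1.38, 1.48, 1.26 and 1.80. Gnal stayed at 1.09, 1.19, 1.11 and 0.966 and Arpp21 at 1.09, 1.23, 0.974 and 0.919. Rasd2 was first or second of the 9 genes, and Arpp21 or Gnal last, in all 37 combinations of set and processing that gave a dorsal-to-ventral ratio, which reuse the same spots. Not all of these could differ. Rescaling of whole areas (TMM and RLE) multiplies all genes of a set alike and cannot change this order. Naming clusters by 30 leading genes left the same genes first, second and last as in the main setting.

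**Figure D4:**
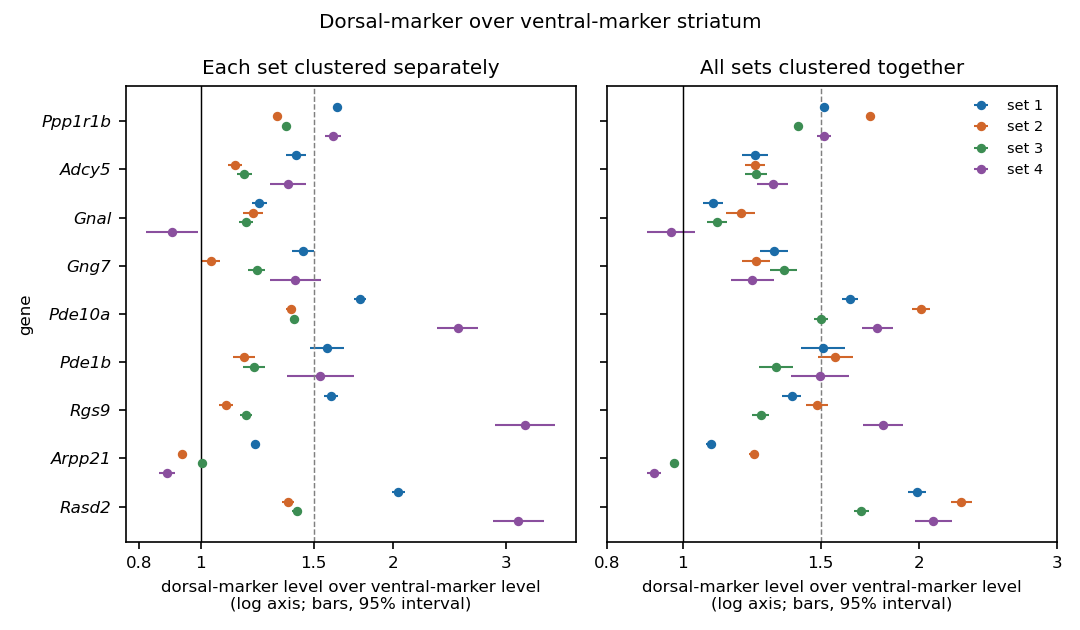
Ratio of the dorsal-marker to the ventral-marker level of each gene (log axis, points by barcode set, bars for 95% intervals of counting error), with each set clustered separately on the left and all sets clustered together on the right; the dashed line is the 1.5-fold threshold. Rasd2 and Pde10a lie to the right and Arpp21 and Gnal near 1 in both panels.

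Single clusters differed between sets. In the striatal cluster with the highest ventral markers of each set (70, 183, 69 and 47 spots), Rasd2 was at 0.346, 0.718, 0.547 and 0.319 of its dorsal-marker level, and Arpp21 at 0.882, 1.15, 0.959 and 1.13. Rasd2 was thus reduced in all 4, most in sets 1 and 4. In the 183 spots of set 2, Gng7, Rgs9, Adcy5 and Pde1b were close to the dorsal-marker level, at 0.998, 0.944, 0.920 and 0.888 of it. Another 115 spots of set 2, led by Otof, Wfs1, Pdyn and Tac1, had too few striatal markers among their leading genes to count as striatal. There Rasd2 was at 399 CPM, or 0.245 of its dorsal-marker level, and Arpp21 at 2942 CPM, or 0.625.

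The other genes of the pathway were taken from a list of 78, of which 67 passed the filter of 10 CPM. Among them 9 were called higher in the striatal areas of every set and 13 lower, where the background was 2.91% and 6.62% of all genes. Calls in both directions were thus more frequent in the list than among all genes. Most of the listed relatives of the 9 genes were not called higher, which also holds for most of all genes. The 9 were chosen as striatal genes, and they and the lists with earlier results of these data known. These comparisons are descriptions only. Of 8 adenylyl cyclases beside Adcy5, 6 were tested, 0 were called higher and Adcy8, Adcy6 and Adcy2 were called lower. Adcy8, a calcium-stimulated cyclase, was at 4.82, 3.91, 5.01 and 5.01 CPM in striatal spots and at 45.0, 29.8, 37.1 and 39.9 CPM elsewhere.

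Among G proteins, Gnas, the widely expressed stimulatory alpha subunit, showed the reverse of Gnal. It was at 539, 480, 448 and 563 CPM in striatal spots and at 1981, 1966, 1742 and 2108 CPM elsewhere, ratios of 0.272, 0.244, 0.257 and 0.267. The gamma subunit genes Gng2, Gng4 and Gng3 and the inhibitory alpha subunit gene Gnai1 were also called lower in every set, with median log2 ratios of -2.94, -2.20, -1.34 and -1.19. Ric8b, whose protein is a chaperone and exchange factor for the stimulatory alpha subunits, was the only G protein gene of the list called higher, at 2.96- to 3.37-fold.

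Of 16 phosphodiesterase genes listed, 10 were tested, and 1 was called higher and 1 lower. Pde1a, the close relative of Pde1b, was at 32.3, 23.3, 24.9 and 39.6 CPM in striatal spots and at 128, 154, 151 and 121 CPM elsewhere, and was called lower in every set. Pde2a, a phosphodiesterase stimulated by cyclic GMP, was called higher (3.03, 2.52, 2.91 and 3.27). Pde7b, which is specific for cyclic AMP, had ratios of 5.80 to 10.3 but a mean of only 1.54 CPM, below the filter.

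Of the partners of RGS9, Rgs7bp, the membrane anchor of this family, was higher by 2.75- to 2.94-fold and Gnb5, its obligate beta subunit, by 2.62- to 2.90-fold. Rgs6, of the same family, and Rasd1, the relative of Rasd2, were called lower with median log2 ratios of -1.81 and -1.82. Downstream, the anchoring protein gene Akap5 was called higher at 2.79- to 4.62-fold and the kinase subunit gene Prkar2b at 2.30- to 2.50-fold, whereas Prkar1b and the kinase inhibitor gene Pkib were called lower. Among phosphatases and their regulators Ppp3ca (2.53- to 3.21-fold), Ppp1ca (2.62- to 3.02-fold) and Arpp19 (2.47- to 2.79-fold) were called higher. Ppp1r1a, the relative of Ppp1r1b that encodes inhibitor 1, had ratios of 1.53 to 1.86 and was not called.

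**Figure D5:**
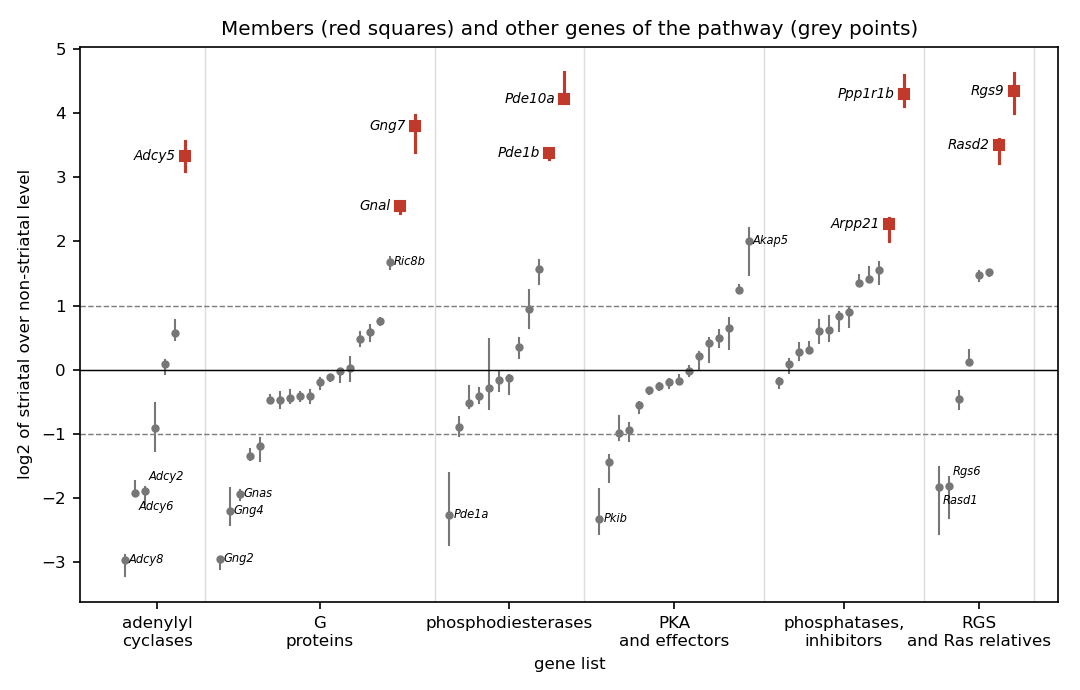
Log2 of the striatal over the non-striatal level for the 9 genes (red squares) and the 67 tested genes of the pathway lists (grey), each drawn at its median over the 4 barcode sets with a bar from the lowest to the highest set; dashed lines mark 2-fold. The 9 genes, chosen as striatal genes, are placed beside the list nearest in name. Each lies above every grey point of its own list, with Adcy8 and Gng2 lowest.

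Levels over the named areas were compared between genes over 52 points, each an area of at least 20 spots in 1 set. These points share sections, depth and the striatal markers that defined the areas, so the correlations are descriptions. Between pairs of the 9 genes Pearson's r ran from 0.375 (Rgs9 and Arpp21) to 0.937 (Pde10a and Pde1b). The genes most alike were Scn4b for Ppp1r1b (0.896), Slc35d3 for Adcy5 (0.932), Plppr1 for Gnal (0.912), Rxrg for Rgs9 (0.951) and Plk2 for Arpp21 (0.941). Sh3rf2 was most alike for both Gng7 (0.961) and Pde10a (0.960), and Pde10a for both Pde1b (0.937) and Rasd2 (0.915). Of these, Scn4b, Rxrg and Sh3rf2 are among the markers that defined the striatal areas. These values pool sets whose levels differ. With each set centred on its own mean, r between Adcy5 and Gnal was 0.941, against 0.694 before, and Rasd2 was closer to Pde1b (0.942) than to Pde10a (0.919), while Rgs9 and Arpp21 remained the least alike pair (0.385).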

How the data were processed

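The authors deposited 1 table of raw counts of 19465 genes in 12602 spots. Space Ranger and Seurat are named in the submitters' processing notes, with no version; the genome build and probe set are not given in the sources used here. Barcode endings match no sample label, so the planned tests between genotypes were not run and no spread between replicates is given. The 9 genes and all gene lists were chosen with earlier results of these data known.

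Spots with under 500 counts were left out (1 spot). In each set, counts were scaled to 10000 per spot and clustered without the 9 genes, the pathway lists and sex-linked genes (2000 variable genes, 30 principal components, 15 neighbours, Leiden resolution 0.8, seed 0; scanpy 1.11.5, leidenalg 0.10.2). Leading genes are those with the largest fold of level inside over outside the cluster, with 10 CPM added. Other areas needed at least 3 markers of their panel among the 50 leading genes; a stricter check of these names was added after the data were seen, and 341 to 1078 spots of a set stayed unnamed. Intervals came from scipy 1.17.1. The genes named were the 9, pathway genes called in every set (up to 10 each way by median ratio), Ppp1r1a and Arpp19, and the genes most alike; Gng3, Gnai1, Prkar1b and Pde7b and single clusters were named after their values were seen. Alternatives used edgeR 4.0.16 for TMM and DESeq2 1.42.0 for RLE factors, as scaling only, with no count model. The steps from clustering to the striatal call were tested on simulated data, redrawn from the cluster means of set 1 with counting error only. The division into dorsal-marker and ventral-marker areas, the other area names and the correlations were not tested in this way.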

Additional observations from a re-analysis of the deposited data

How the results depend on the processing

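No paired analysis was possible because the barcode sets carry no replicate number of the labels; the tests between genotypes and their alternatives were not run. The count of 9 genes higher in the striatum held in every set under every alternative run: resolutions 0.4 and 1.2, all sets clustered together, a minimum of 2000 counts per spot, 30 leading genes, TMM, RLE, thinned spots, a marker score above Otsu's threshold, no filter on genes, and an alternative chosen after seeing the data that also counts clusters with a striatal marker fold above 0.5. The filter on genes does not enter the count of the 9, so leaving it off could not change that count. Counts of pathway genes stayed within 1.5 times, and leaving out each set gave 9 genes, 9 and 13 pathway genes and 0 genes called between dorsal and ventral in every set. The 9 genes and the 0 could not differ here. All 9 were called in each single set, and 0 between dorsal and ventral in both sets 2 and 3. TMM and RLE shifted striatal log2 ratios by 0.08 to 0.21 and dorsal-to-ventral ones by 0.09 to 0.15.

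Dorsal-to-ventral counts depended on the clustering, and the share of all genes called was not computed under the alternatives. All sets together gave 1 gene in every set, 4 in set 2 and 1 in set 3. Resolution 0.4 gave 6 in set 2 and no ventral-marker area in the other sets, as did Otsu's threshold in all 4, and resolution 1.2 gave 3 in set 1 and 2 in set 2. TMM and RLE gave 2 each in set 3, and the added alternative gave 2 in set 2. The log2 ratio of Arpp21 in set 2 reversed from -0.10 to 0.70 at resolution 0.4, 0.30 with all sets together, 0.0030 under RLE and 0.076 under the added alternative. In set 3 it was 0.0063, with an interval that holds 0, and went to -0.16 at resolution 1.2, -0.04 with all sets together and -0.02 with thinned spots. The direction for Arpp21 is thus not settled in sets 2 and 3; the cause was not tested. Over all settings and sets the log2 dorsal-to-ventral ratio of Rasd2 ran from 0.44 to 1.80 and Pde10a from 0.39 to 1.47. With 1 section per set and no link to genotype, differences between sets separate sections only.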
